A study of Rattus norvegicus with 15 samples.

Results

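Mitochondrial ribosomal protein genes are nuclear genes whose products are made in the cytosol and imported into mitochondria. They were taken as every protein coding row of the expression table whose symbol begins with Mrpl or Mrps followed by a digit. The rule gave 74 of 22436 genes, or 74 of 18127 protein coding genes, with 44 Mrpl names and 30 Mrps names. Of these, 73 passed the filter on low values and were tested among 12490 genes. Mrps21l did not pass, with 0 to 16 reads in a library. Rows written as mrpl9, mrpl11 and mrpl24 in lower case fell outside the rule and are given separately.

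The mitochondrial ribosome has a small subunit, which holds the messenger RNA and pairs it with transfer RNA, and a large subunit, which joins amino acids. It translates only the respiratory chain proteins that the mitochondrial genome encodes, and its own proteins all come from nuclear genes. In a gland that secretes large amounts of protein, as the prostate does, oxidative phosphorylation needs these mitochondrial products beside a larger number of nuclear-encoded subunits.

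The 15 RNA-seq samples were prostates of SD rats, 5 in each of 3 groups, with the replicate numbers 6 to 10 in every group. Control rats and rats of the CP/CPPS model, in which chronic prostatitis goes with pelvic pain (Model), are both labelled as having had no treatment. The third group (LIPUS), by the study's design also model rats, received low-intensity pulsed ultrasound, short bursts of sound applied as a physical treatment, for 4 weeks; its intensity reads 1.0 W/cm2 in the sample titles and 1.5 W/cm2 in the treatment field. The study asked how ultrasound bears on immune balance and inflammation in prostatitis. The labels give neither the way prostatitis was induced nor the age of the rats. Nor do they tie each sample to an animal of its own, so the spread behind every p-value may be technical.

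Libraries held 29672237 to 36400318 reads, of which 16436 to 90806 fell on the 74 genes. The 13 protein genes of the mitochondrial genome took 4.23 ± 0.407% of reads of Control libraries, 34.9 ± 9.18% of Model and 59.6 ± 15.7% of LIPUS libraries (mean ± SD, n = 5 each). FPKM, the number of fragments scaled to gene length and to library size, falls for every nuclear gene when those reads rise, so each value is also given as nuclear TPM, the FPKM divided by the library's sum over genes outside the mitochondrial genome and multiplied by 1000000. All 11 markers of prostate epithelium had reads in every group. Their summed FPKM was 120919 to 171485 in Control and 45125 to 180162 in Model, against 8240 to 113384 in LIPUS, while in nuclear TPM it was 202861 to 268911, 112808 to 270967 and 72282 to 261644. In nuclear TPM, 6 fibroblast markers summed to 1092 to 2175 in Control and 146.9 to 307.4 in Model, against 191.7 to 1244 in LIPUS, and 5 smooth muscle markers to 1565 to 4371, 206.4 to 1334 and 478.1 to 2213. On the same scale 9 macrophage markers summed to 138.4 to 194.1, 92.3 to 221.7 and 287.9 to 943.3, and 7 seminal vesicle markers to 742.9 to 147820, 115.8 to 148614 and 1134 to 48327. Sums of 7 skeletal muscle markers were 164.1 to 970.5, 4.62 to 473.3 and 56.9 to 273.5 in the same order of groups. For macrophage markers the median log2 change from Control to LIPUS was 0.17 as deposited and 1.30 in nuclear TPM, and for epithelial markers -1.15 and -0.01. The part of these cell types in the results below was not tested. The library Model 7 stood apart from the other Model libraries for many of the 74 genes, and LIPUS 10 had the highest mitochondrial percent of reads, 83.3%.

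Transcripts of the mitochondrial ribosomal proteins summed to a higher level in Model than in Control on both scales. Their summed level was 1552 to 1783 FPKM in Control and 2054 to 2748 in Model, against 482.2 to 1677 in LIPUS. Every Model library lay above every Control library, while the LIPUS libraries spread from the lowest value of all to within the Control range. In nuclear TPM the sum was 2653 ± 217.4 in Control and 4287 ± 620.5 in Model, against 3669 ± 657.1 in LIPUS (SD, n = 5 each). The means stood at a ratio of 1.62 for Model against Control, 0.856 for LIPUS against Model and 1.38 for LIPUS against Control. In bulk tissue, fewer cells of a type and less RNA per cell cannot be told apart. The level of the median member was 28.2 ± 2.02 nuclear TPM in Control and 31.9 ± 11.99 in Model, against 35.6 ± 9.58 in LIPUS, a smaller difference between Model and Control than the SD within Model.

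**Figure D1:**
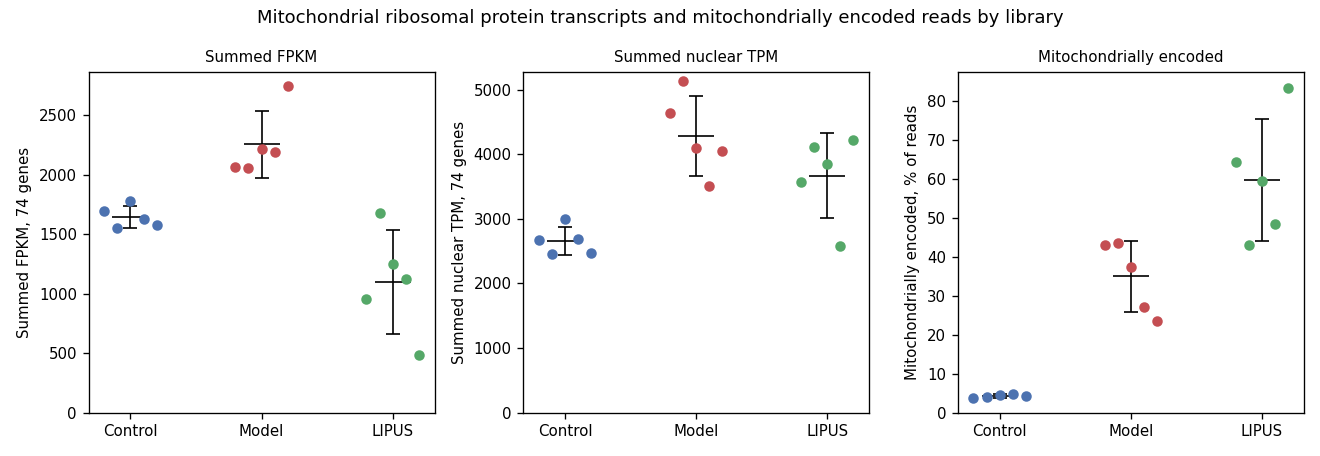
Summed FPKM (left) and summed nuclear TPM (middle) of the 74 genes, and the percent of reads on mitochondrially encoded genes (right), in each library; points are libraries, and bars give the mean and SD of 5. On both scales of the members' sum, all Model points sit above all Control points, and the percent of mitochondrially encoded reads runs from at most 4.69% in Control to 83.3% in 1 LIPUS library.

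Mrps6 and Mrpl54 carried much of that sum. Mrps6, the counterpart of bacterial ribosomal protein S6 in the small subunit, made up 6.27% of the members' FPKM in Control and 15.2% in Model, against 8.61% in LIPUS. Mrpl54, a large subunit protein, made up 4.28%, 9.34% and 6.3%. Without the pair the sum was 2373 ± 184.2 nuclear TPM in Control and 3278 ± 905.0 in Model, against 3134 ± 628.3 in LIPUS. It ran from 2182 to 2661 in Control and from 2434 to 4785 in Model, so without the pair these groups overlapped. The highest value was that of Model 7. The order of the members by mean FPKM was similar in the 3 groups: across the 73 members tested, Spearman's rho of the group means was 0.90 between Model and Control, 0.94 between LIPUS and Model and 0.94 between LIPUS and Control, with each pair of groups sharing gene lengths. The highest mean FPKM in Control belonged to Mrps21, Mrps6, Mrpl54, Mrpl20 and Mrpl17, and the lowest to Mrpl47, Mrps35, Mrps27, Mrpl40 and Mrpl38.

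Model was compared with Control to show what the prostatitis model changed. In nuclear TPM, 19 of 73 members rose and 3 fell (limma on log2 values with a pseudocount of 0.1, adjusted p under 0.05 over all genes tested). Over all 12490 genes, 5.23% rose and 31.7% fell. The median log2 change was 0.20 for members and -0.70 for all genes tested, and 66 of 73 members lay above the median gene. The groups did not overlap for 19 members that were higher in Model and for 0 that were lower, where 5.52% and 25.04% of all genes tested did so. On the deposited FPKM scale 6 members rose and 7 fell, against 2.95% and 43.1% of all genes, and the medians were -0.04 and -0.90; 9 members were higher and 5 lower without overlap, against 3.16% and 41.4%. Scalings that centre on the typical gene gave more calls upward: median-of-ratios 48 higher and 0 lower, quantile normalization 44 and 0, and limma-voom on recovered reads 48 and 0. Of all genes, 15.3% rose and 20.2% fell with the first (from deposited values), 20.2% and 17% with the second and 17% and 24.7% with the third. All 19 members called higher in nuclear TPM were also called higher under those 3 scalings, while the 3 called lower were not called there.

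**Figure D2:**
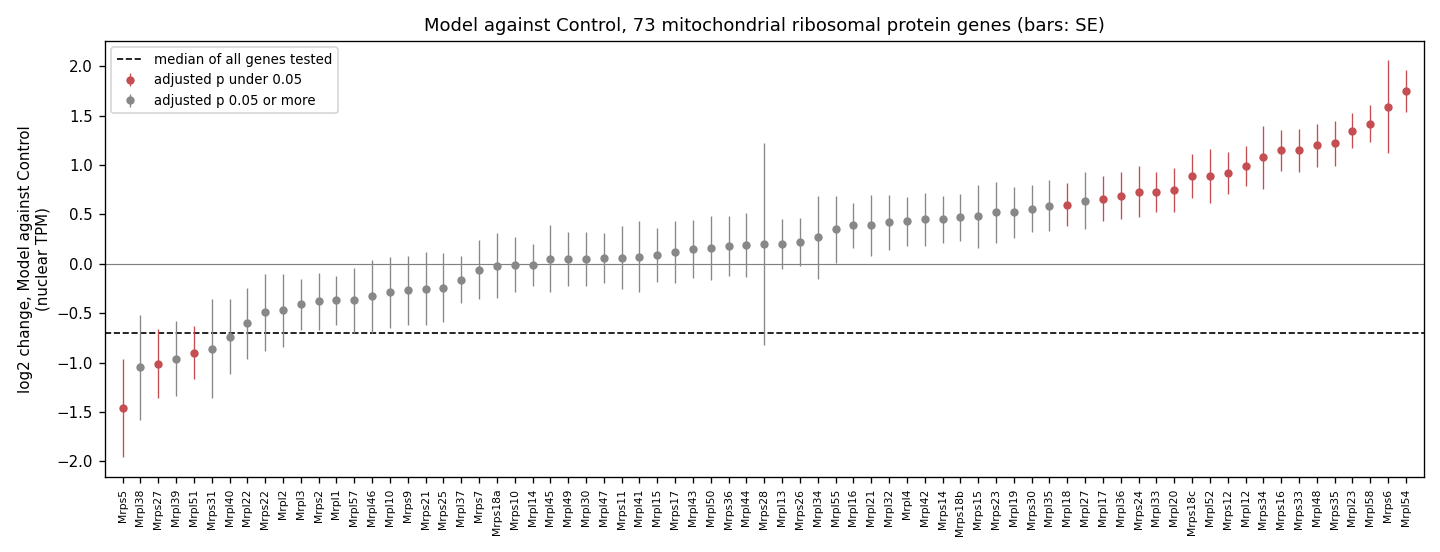
Log2 change in nuclear TPM from Control to Model for each of the 73 members tested, ordered by size; points are fitted changes, bars their SE, red points passed an adjusted p of 0.05, and the dashed line is the median of all genes tested at -0.70. The changes run from -1.46 for Mrps5 to 1.75 for Mrpl54, and 66 members lie above the dashed line.

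By name, 8 of 29 Mrps members rose and 2 fell in nuclear TPM, beside the 5.23% and 31.7% of all genes; the names include Mrps18a and Mrps30, which belong to the large subunit. Mrps6 was at 149.1, 171.8, 195.2, 190.7 and 126.3 nuclear TPM in Control, at 771.1, 96.7, 810.1, 738.9 and 666.9 in Model and at 184.9, 257.6, 309.0, 313.5 and 483.3 in LIPUS, for replicates 6 to 10 in order. The other 4 Model libraries lay above every other sample, and Model 7 lay below every Control library. The log2 change from Control to Model was 1.59 ± 0.47 (SE, limma adjusted p = 0.0164) and without Model 7 it was 2.18 (adjusted p = 7.39e-06). On the deposited scale Mrps6 missed the threshold with a log2 change of 1.35 ± 0.55 (limma adjusted p = 0.0516), and passed it without Model 7 at 2.04 (adjusted p = 3.5e-05). On the GRCr8 annotation Mrps6 shares its strand and overlaps with Slc5a3, which was at a mean of 2.34 FPKM in Control and 1.06 in Model, against 0.212 in LIPUS.

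Mrps35, a small subunit protein, was low in Control, with 6.58, 8.3, 12.5, 9.57 and 7.29 nuclear TPM. It was at 25.1, 21.4, 23.6, 15.6 and 17.4 in Model and at 20.3, 23.7, 25.3, 23.04 and 32.9 in LIPUS. Model and LIPUS both lay wholly above Control, with a log2 change of 1.22 ± 0.23 in Model (SE, limma adjusted p = 0.00101) and 1.51 ± 0.23 in LIPUS (limma adjusted p = 0.000377). Mrps16, the counterpart of bacterial S16, was at 39.2 ± 4.56 nuclear TPM in Control and 87.3 ± 12.4 in Model, against 59.3 ± 16.5 in LIPUS (SD, n = 5), a log2 change of 1.15 ± 0.21 from Control to Model. Mrps34, which stabilises the small subunit, was at 30.6 to 40.5 in Control and 57.7 to 97.97 in Model, a change of 1.08 ± 0.32 with no overlap. Mrps12, which lies at the decoding centre, was at 31.1 ± 3.39 in Control and 60.1 ± 15.6 in Model, a change of 0.92 ± 0.21. Mrps33 (1.15) and Mrps24 (0.73) also rose, Mrps24 with 7 of 15 leave-one-out fits above the threshold and an adjusted p of up to 0.0947.

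The Mrps18 genes form a family of 3 that share an ancestor with bacterial S18, and 1 of them was called. Mrps18c, which takes the bacterial place in the small subunit, was at 43.96 to 48.2 nuclear TPM in Control and at 64.3, 126.4, 91.4, 72.9 and 77.99 in Model, a log2 change of 0.89 ± 0.22 (SE, limma adjusted p = 0.00552) with no overlap. Mrps18b was at 39.7 ± 3.63 in Control and 55.1 ± 7.05 in Model and missed the threshold with a change of 0.47 (limma adjusted p = 0.128), but passed it under 3 other scalings at 0.77 to 1.01. Mrps18a, which belongs to the large subunit despite its name, was at 38.9 ± 6.12 in Control and 41.4 ± 17.9 in Model and was not called. The differences between the 3 genes were not tested.

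Mrps5 and Mrps27 were the small subunit genes that fell. Mrps5, the counterpart of bacterial S5, was at 29.3, 24.97, 29.7, 29.4 and 30.9 nuclear TPM in Control and at 9.01, 39.7, 10.2, 3.48 and 9.58 in Model. Model 7 was the highest of all 15 samples, and the other 4 Model libraries lay below every Control library. The log2 change was -1.46 ± 0.50 (SE, limma adjusted p = 0.032) and -1.94 without Model 7 (adjusted p = 0.00083). Mrps27, a pentatricopeptide repeat protein of the small subunit, was at 7.84 to 10.01 in Control and at 4.14, 9.74, 5.64, 2.64 and 2.61 in Model, a change of -1.01 ± 0.35 (limma adjusted p = 0.0313). Leaving out single libraries took Mrps5 over the threshold in 8 of 15 fits and Mrps27 in 7, with adjusted p of up to 0.0906 and 0.0881, reached without Model 9 and without Model 10. Mrps22 (16.02 ± 1.97 in Control, 12.2 ± 6.29 in Model) and Mrps7, in the head of the subunit (58.2 ± 6.15 and 60.3 ± 27.8), were not called.

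Of 44 Mrpl members, 11 rose and 1 fell in nuclear TPM, beside 5.23% and 31.7% of all genes tested. Mrpl54 was at 121.3, 97.4, 134.9, 118.6 and 97.5 nuclear TPM in Control, at 501.9, 253.8, 389.7, 338.9 and 478.0 in Model and at 187.8, 238.6, 240.9, 222.1 and 236.6 in LIPUS. The 3 groups did not overlap, in the order Control, LIPUS, Model. The log2 change from Control to Model was 1.75 ± 0.21 (SE, limma adjusted p = 2.46e-05) in nuclear TPM and 1.52 ± 0.36 on the deposited scale (adjusted p = 0.00277). Mrpl58, a peptidyl-tRNA hydrolase built into the large subunit and also known as Ict1, releases peptides from stalled ribosomes. It was at 36.4 to 39.9 nuclear TPM in Control, at 127.6, 91.1, 100.5, 98.5 and 89.5 in Model and at 42.8, 66.2, 74.2, 51.1 and 58.8 in LIPUS. Its groups were again separate in the same order, with a log2 change of 1.42 ± 0.19 from Control to Model (SE, limma adjusted p = 5.77e-05).

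Mrpl23, whose bacterial counterpart L23 sits at the exit of the peptide tunnel, was at 54.02 to 76.9 nuclear TPM in Control and 142.3 to 171.0 in Model, a log2 change of 1.35 ± 0.18 (SE, limma adjusted p = 5.51e-05). Mrpl48 was at 24.7 to 26.5 in Control and 50.5 to 70.9 in Model, a change of 1.20 ± 0.22. Mrpl12, part of the stalk that recruits translation factors and a binding partner of the mitochondrial RNA polymerase in human cells, was at 18.05 to 22.2 in Control and 32.5 to 57.9 in Model, a change of 0.99 ± 0.20 (limma adjusted p = 0.00134). For all 3 genes no Model library reached down to a Control library. Mrpl52 (0.89), Mrpl20 (0.75), Mrpl33 (0.73), Mrpl36 (0.69), Mrpl17 (0.66) and Mrpl18 (0.60) rose by less. Of these, Mrpl17, Mrpl18, Mrpl36 and Mrpl52 lost the call in 7, 11, 8 and 1 (without Control 6) of 15 leave-one-out fits, with an adjusted p of up to 0.074, 0.094, 0.0786 and 0.0501.

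Mrpl51, a large subunit protein without a bacterial counterpart, was the Mrpl gene that fell. It was at 20.5, 20.7, 24.8, 20.7 and 21.9 nuclear TPM in Control and at 9.74, 23.5, 9.14, 8.97 and 11.1 in Model. Apart from Model 7, all Model values were below every Control value, and the log2 change was -0.90 ± 0.27 (SE, limma adjusted p = 0.0161), or -1.15 without Model 7 (adjusted p = 0.000241). The same library stood at the top of Model for Mrpl38 (19.7 against 1.21 to 6.09) and Mrpl39 (29.7 against 5.51 to 10.2), which were not called, at -1.05 (adjusted p = 0.132) and -0.96 (adjusted p = 0.0569), and were called without it, at -1.54 (adjusted p = 0.00813) and -1.35 (adjusted p = 0.000621). Mrpl3 was at 32.2 ± 2.44 in Control and 25.6 ± 11.4 in Model, Mrpl44, which has a ribonuclease III fold, at 21.1 ± 2.04 and 24.7 ± 6.88, and Mrpl45, which holds the ribosome to the inner membrane, at 17.9 ± 2.15 and 18.9 ± 5.09; none was called, though Mrpl3 was without Model 7, at -0.64 (adjusted p = 0.0159). Mrps30, a large subunit protein in spite of its name, was at 20.2 ± 1.3 in Control and 30.7 ± 8.96 in Model, without overlap but with a limma adjusted p of 0.0759. Without Model 7, 16 members rose and 10 fell in nuclear TPM, while 7.17% of all genes rose and 44% fell.

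**Figure D3:**
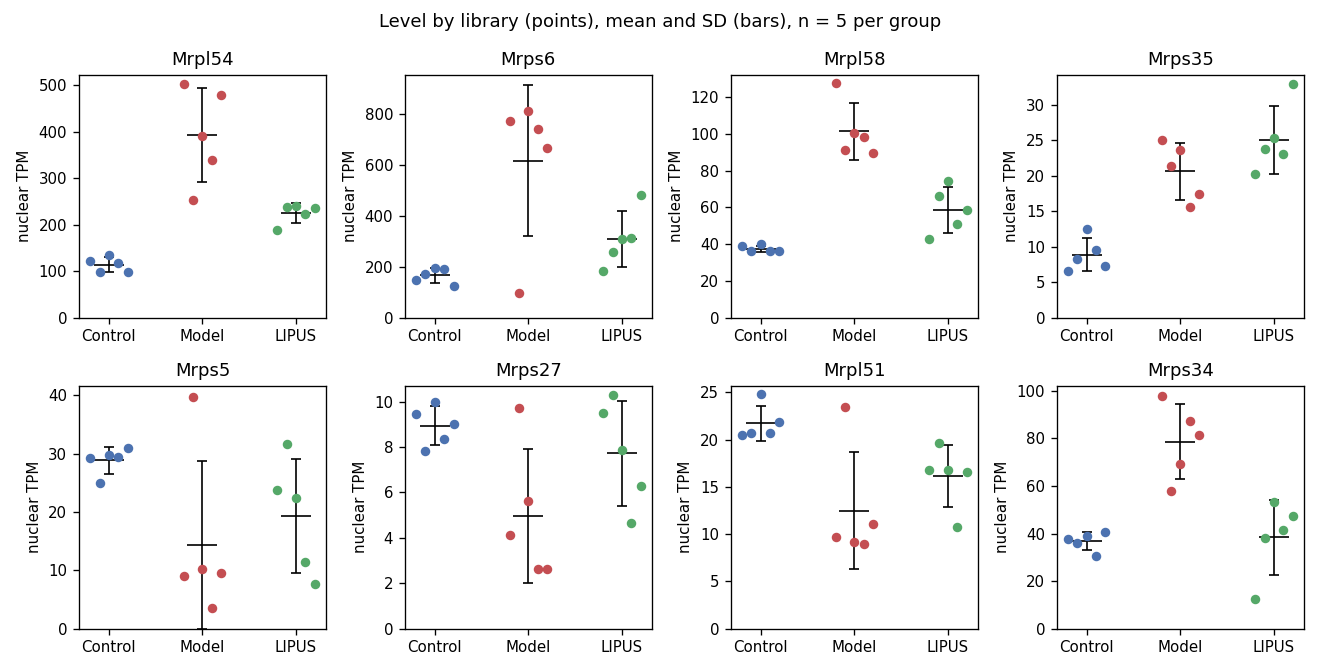
Nuclear TPM of 8 members in each library; points are libraries, bars the mean and SD of 5, and every axis starts at 0. Mrpl54, Mrpl58 and Mrps35 separate Model from Control completely, while 1 Model library, Model 7, sits with or above Control for Mrps5, Mrps27 and Mrpl51 and below it for Mrps6.

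Changes from Control to Model were set beside gene length. Length, recovered from the FPKM values, had a median of 1151 bases over the 73 members and 3004 bases over all genes tested. Of the 38 shorter members, 15 rose and 0 fell in nuclear TPM, with a median log2 change of 0.39. Of the 35 longer members, 4 rose and 3 fell, with a median of 0.05. The difference between shorter and longer members was not tested. Over all 12490 genes, of any length, 5.23% rose and 31.7% fell. The shares among genes of similar length were not counted. Across genes, Spearman's rho of log2 change and length was -0.40 over the members and -0.32 over all 12490 genes; genes of 1 set of libraries are not independent replicates, and the part of length in the calls was not tested. Mrps35, at 2255 bases, was the longest member that rose, and Mrps5 at 2251, Mrpl51 at 2367 and Mrps27 at 3008 bases were the members that fell.

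**Figure D4:**
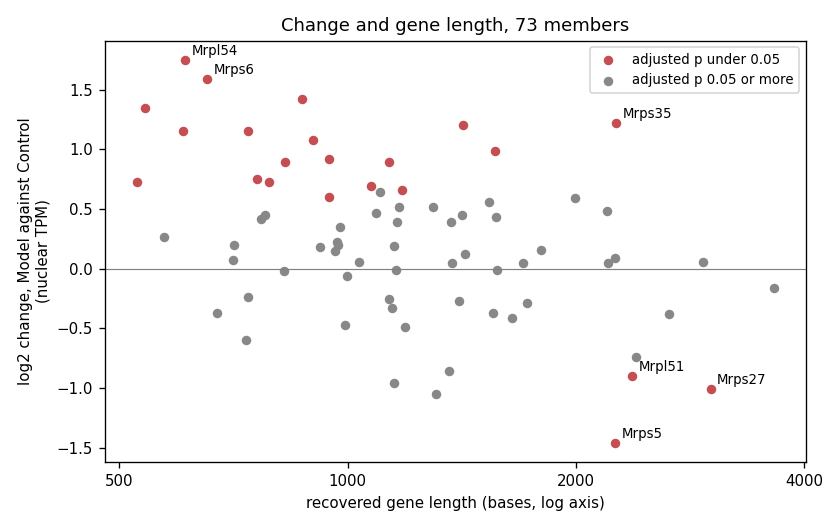
Log2 change in nuclear TPM from Control to Model (vertical) against recovered gene length in bases (horizontal, log axis) for the 73 members tested; red points passed an adjusted p of 0.05. Calls of a rise lie mostly on the left, Mrps35 being the longest of them, and the 3 falls lie at 2251 bases or more.

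Promoters were set beside these changes because ETS factors such as GABP, together with NRF1 and YY1, are known regulators of nuclear genes for mitochondrial proteins. RefSeq gave a promoter window on GRCr8, 250 bases before and 50 after the start, for 59 of 74 members. The letters CCGGAAG (ETS) stood on either strand in 20 of 59 windows (33.9%), in 18.1% of windows of all genes tested and in 8.75% of all 33469 windows. GCGCATG (NRF1) was in 10.2%, 6.86% and 3.77%, and ATGGCGG (YY1), which holds a start codon, in 22%, 10.1% and 4.8%. Of 15 windows of members that rose from Control to Model in nuclear TPM, 8 held the ETS letters (53.3%). The NRF1 letters stood in 2 (13.3%) and the YY1 letters in 2 (13.3%). Among the other 44 windows, the counts were 12 (27.3%), 4 (9.09%) and 11 (25%) in the same order. These differences were not tested. The windows of the 3 members with the highest rise and of Mrps27 and Mrps5, which fell, are shown 5′ to 3′ on their own strand with the matched letters in capitals. They lie at chr7:9103275-9103574 (Mrpl54), chr11:44778417-44778716 (Mrps6), chr10:101145092-101145391 (Mrpl58), chr2:32473954-32474253 (Mrps27) and chr3:135274083-135274382 (Mrps5) of GRCr8, each on the plus strand.
Mrpl54: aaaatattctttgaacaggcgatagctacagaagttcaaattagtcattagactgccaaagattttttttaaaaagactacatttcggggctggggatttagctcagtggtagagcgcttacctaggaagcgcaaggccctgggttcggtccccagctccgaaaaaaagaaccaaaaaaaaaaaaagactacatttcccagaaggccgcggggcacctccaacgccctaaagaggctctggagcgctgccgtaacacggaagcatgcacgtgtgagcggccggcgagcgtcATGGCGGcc
Mrps6: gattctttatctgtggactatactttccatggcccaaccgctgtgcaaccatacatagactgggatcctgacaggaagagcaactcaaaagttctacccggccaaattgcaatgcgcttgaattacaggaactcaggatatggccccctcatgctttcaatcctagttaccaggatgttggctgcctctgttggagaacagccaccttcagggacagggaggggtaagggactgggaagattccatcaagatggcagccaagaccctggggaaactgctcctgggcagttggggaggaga
Mrpl58: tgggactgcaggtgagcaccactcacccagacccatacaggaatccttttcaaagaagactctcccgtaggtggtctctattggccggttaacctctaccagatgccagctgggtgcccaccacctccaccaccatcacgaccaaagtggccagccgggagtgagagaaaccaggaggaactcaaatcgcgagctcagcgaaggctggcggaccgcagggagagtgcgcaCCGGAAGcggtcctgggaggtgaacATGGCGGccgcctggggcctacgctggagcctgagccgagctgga
Mrps27: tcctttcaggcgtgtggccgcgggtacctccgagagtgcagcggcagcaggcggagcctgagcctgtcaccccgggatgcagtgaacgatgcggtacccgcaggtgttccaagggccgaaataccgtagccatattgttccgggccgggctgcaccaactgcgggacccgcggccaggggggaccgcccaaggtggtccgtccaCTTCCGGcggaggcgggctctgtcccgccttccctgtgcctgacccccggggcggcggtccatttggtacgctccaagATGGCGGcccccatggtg
Mrps5: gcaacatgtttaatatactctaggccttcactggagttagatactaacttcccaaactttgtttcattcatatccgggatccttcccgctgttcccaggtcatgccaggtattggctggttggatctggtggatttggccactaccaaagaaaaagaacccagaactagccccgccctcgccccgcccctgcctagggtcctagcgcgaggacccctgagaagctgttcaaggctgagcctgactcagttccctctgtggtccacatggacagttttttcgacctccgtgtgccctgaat
Mrpl58 and Mrps27, which moved in opposite directions, each held an ETS and a YY1 match, Mrpl54 held a YY1 match, and Mrps6 and Mrps5 held none of the 3. A match is a run of letters and not a binding site.

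Other genes of mitochondrial gene expression were counted in the same fit. For these lists and those of the next paragraph, the shares over all 12490 genes tested were 5.23% higher and 31.7% lower. The median gene was at -0.70. How the calls in any of these lists held in leave-one-out fits or under other scalings was not examined. Of 5 mitoribosome proteins with other names 1 rose in nuclear TPM from Control to Model: Chchd1, a small subunit protein, went from 70.1 ± 6.91 to 131.4 ± 19.8 (SD, n = 5), a log2 change of 0.90 ± 0.23 (SE, limma adjusted p = 0.00721). Of 25 assembly factors 1 rose, Ngrn, from 26.03 ± 1.27 to 48.4 ± 7.63, and 1 fell, the RNA helicase Dhx30, from 7.74 ± 0.405 to 3.2 ± 2.54. Of 20 mitochondrial aminoacyl-tRNA synthetases 0 rose and 3 fell, with a median of -0.69; Iars2, which charges isoleucine, fell from 20.8 ± 2.47 to 3.49 ± 1.06, a log2 change of -2.58 ± 0.42 (limma adjusted p = 0.000327), and Lars2 and Yars2 fell by 1.35 and 1.27 on the log2 scale. Of 14 translation factors 0 rose and 1 fell, and of 10 genes for transcription and replication of mitochondrial DNA 0 rose and 0 fell, Tfam being at 42.1 ± 3.3 in Control and 36.3 ± 27.9 in Model. Of 10 RNA processing genes 3 fell, among them Lrpprc, which stabilises mitochondrial messengers, at 23.9 ± 3.95 and 7.75 ± 11.8.

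Of 16 import and mass genes 3 rose, led by the import receptor Tomm22, from 85.97 ± 10.6 to 192.5 ± 22.6 nuclear TPM. Of 7 regulators tested 0 rose and 4 fell, among them Yy1, Myc and Gabpb1, with a median of -1.14; Yy1 went from 17.1 ± 1.36 to 6.01 ± 8.2. All 13 mitochondrially encoded genes rose, with a median log2 change of 3.15. Of 96 cytosolic ribosomal protein genes tested 76 rose and 1 fell, with a median of 1.32, and of 83 nuclear respiratory chain genes 14 rose and 4 fell, with a median of 0.09. The medians of the mitochondrial ribosomal protein genes (0.20) and of the nuclear respiratory chain genes lay below that of the cytosolic ribosomal proteins; the differences between the lists were not tested.

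LIPUS was compared with Model to show what ultrasound changed in the disease. On the deposited scale 0 of 73 members rose and 27 fell, where 1.31% and 13.3% of all genes tested did, and the median log2 change was -0.82 for members and -0.60 for all genes. The groups did not overlap for 0 members that were higher and 17 that were lower, where 0.536% and 4.22% of all genes did so. In nuclear TPM 0 rose and 1 fell, against 1.71% and 0.28% of all genes, with medians of 0.06 and 0.21, and 0 members were higher and 5 lower without overlap, against 1.52% and 0.6%. At an unadjusted p under 0.05, 48 members differed on the deposited scale and 13 in nuclear TPM. The share of all genes at that p was not counted, so no result about the members is drawn from it. Median-of-ratios gave 6 lower, quantile normalization 5 and limma-voom 1, each with 0 higher, where 1.49%, 1.75% and 0.28% of all genes were lower from deposited values. The 27 calls depended on which libraries were fitted. With only the 2 groups in the fit, and without Model 8, Model 9, Model 10 or LIPUS 6, 0 members were called lower, and of all 12490 genes 0, 14, 4, 5 and 11 were, against 1657 with all libraries. The members' median log2 change in those fits was -0.82, -0.86, -0.87, -0.78 and -0.86, beside -0.82 with all libraries. Without Model 6, 7 members and 198 genes were called lower, and without LIPUS 7, 51 members and 4345 genes. Without Model 7, 12 members rose and 9 fell in nuclear TPM (16.4% and 12.3%), beside 20.9% and 6.49% of all genes.

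Mrpl58 was the member called on both scales. Its FPKM was 56.8, 36.4, 54.4, 61.5 and 60.7 in Model and 11.4, 26.99, 24.1, 22.1 and 6.7 in LIPUS, with no overlap. The log2 change was -1.71 ± 0.33 (SE, limma adjusted p = 0.025) as deposited and -0.80 ± 0.19 (adjusted p = 0.0362) in nuclear TPM; the latter lost the call in 11 of 15 leave-one-out fits, at adjusted p of up to 0.0887. Mrps34 was at 43.6, 23.1, 37.5, 54.4 and 55.1 FPKM in Model and 3.3, 15.5, 17.2, 18.04 and 5.39 in LIPUS, also without overlap, a change of -2.06 ± 0.42 (adjusted p = 0.025). In nuclear TPM it was -1.16 ± 0.32 and missed the threshold (adjusted p = 0.0689), and without Model 7 it was -1.27 (adjusted p = 0.0109). Mrpl54 fell by 1.67 and Mrps16 by 1.50 on the log2 scale as deposited, each with an adjusted p of 0.025; they and Mrps34, Mrpl58, Mrpl20 and Mrps30 lost the call as deposited in 4 leave-one-out fits, without Model 8, Model 9, Model 10 or LIPUS 6, with an adjusted p of up to 0.0767.

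Mrpl20 fell by 1.22 and Mrps30 by 1.70 on the same scale. Mrpl44 was 11.3 to 15.5 FPKM in Model, against 6.24 to 7.52 in LIPUS, without overlap, a change of -0.84 ± 0.21 (SE, limma adjusted p = 0.0276) that was called in neither those 4 fits nor that without Model 6. In nuclear TPM it was 24.7 ± 6.88 in Model, against 28.8 ± 19.2 in LIPUS. Mrps6 had a nuclear TPM change of -0.75 (adjusted p = 0.376) with all libraries and of -1.34 (adjusted p = 0.00161) without Model 7. Mrps31 (1.07), Mrpl39 (0.79) and Mrps27 (0.76) had the highest changes from Model to LIPUS in nuclear TPM; none was called, with adjusted p of 0.236, 0.248 and 0.23, and without Model 7 all were, at 1.37 (adjusted p = 0.0438), 1.19 (adjusted p = 0.005) and 1.04 (adjusted p = 0.0168). Mrps31 was at 51.3 nuclear TPM in LIPUS 10 and 6.68 to 20.02 in the other LIPUS libraries, and its change was 0.67 (adjusted p = 0.449) without LIPUS 10 and 0.71 (adjusted p = 0.497) without Model 10. Mrps28 had 0 reads in LIPUS 10, where 3 reads are the limit that a count of 0 allows, and up to 16.01 nuclear TPM in the other LIPUS libraries.

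LIPUS was compared with Control to show what differed between ultrasound-treated and Control prostates. This comparison shares its samples with those above. On the deposited scale 0 members rose and 44 fell, against 0.953% and 74.4% of all genes, with medians of -0.84 and -1.48, and 0 were higher and 28 lower without overlap, against 0.416% and 59.4%. In nuclear TPM 9 rose and 0 fell, against 4.66% and 18.01%, with medians of 0.29 and -0.46, and 8 were higher and 1 lower without overlap, against 3.67% and 20.99%. The direction of the members as a set thus turned with the scale; median-of-ratios gave 34 higher and 0 lower, quantile normalization 25 and 0, and limma-voom 34 and 0, where from deposited values 11.6% and 14.3%, 13.7% and 12.4%, and 11.1% and 14.2% of all genes rose and fell. The 9 members were Mrps35 (1.51), Mrpl54 (0.99), Mrpl48 (0.96), Mrpl52 (0.92), Mrpl23 (0.88), Mrps18c (0.82), Mrps33 (0.75), Mrpl18 (0.64) and Mrpl58 (0.61). Mrps35, Mrpl54, Mrpl48, Mrpl23 and Mrps18c kept the call in every leave-one-out fit. Mrpl18 lost it in 12 of 15 fits (adjusted p of up to 0.109), Mrpl52 in 5 (up to 0.0654), Mrpl58 in 5 (up to 0.0713) and Mrps33 in 4 (up to 0.0634); the last 3 each lost it without Control 6, Control 10 and LIPUS 8, Mrpl52 also without Control 9 and LIPUS 10, Mrpl58 without Control 7 and Control 9, and Mrps33 without Control 7. Without Model 7, which enters this comparison only through the shared spread, 17 rose, beside 6.61% of all genes. The lowest changes from Control to LIPUS in nuclear TPM were those of Mrps28 (-1.40, adjusted p = 0.343), Mrps5 (-0.74, adjusted p = 0.3) and Mrps2, a small subunit protein (-0.53, adjusted p = 0.194), and limma called none of them. Without LIPUS 10, in which Mrps28 had 0 reads, its change was -0.03 (adjusted p = 0.958).

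The 3 rows in lower case behaved as follows in nuclear TPM. The row mrpl9 was at 25.1 ± 6.79 in Control and 42.6 ± 5.26 in Model, against 52.4 ± 25.9 in LIPUS, with log2 changes of 0.79 (limma adjusted p = 0.034) and 0.98 (limma adjusted p = 0.0183) against Control. The rows mrpl11, a stalk protein at 39.9 ± 4.11, 46.2 ± 16.8 and 38.5 ± 11.5, and mrpl24, at 17.9 ± 2.14, 19.9 ± 9.68 and 23.8 ± 6.88, were not called in nuclear TPM in any of the 3 comparisons.

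Spread between libraries differed between the groups. The median coefficient of variation of a member in nuclear TPM was 10.9% in Control and 32.9% in Model, against 32.4% in LIPUS, and over all genes tested it was 15.2%, 52.3% and 46.97%. The medians of the members were below those of all genes, which was not tested, and single members were above them, such as Mrps5 in Model at 100.1% and Mrps31 in LIPUS at 81.99%. On GRCr8, 19 of 74 members overlap another annotated gene; strandedness is not given in the sources used here, so reads from both cannot be told apart there. Among members that rose, Mrpl36 (mean 19.7 FPKM in Control) overlaps Ndufs6, at 90.8 in Control and 100 in Model. Mrpl48 (15.9 in Control) overlaps Rab6a, at 49.1 in Control and 24.9 in Model. The part of these neighbours in the calls was not tested.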

How the data were processed

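Total RNA of 15 prostate samples was extracted with TRIzol and made into libraries with a VAHTS Universal V5 kit, as the labels' protocols say. Values are FPKM that the authors computed and deposited as 1 table of genes by samples. The submitters' processing notes name the build rn6 and, without role or order, DESeq2, HTSeq, R 3.2.0, SAMtools, HISAT2 and fastp. The mitochondrial ribosomal protein genes and all lists were chosen with earlier results of these data known.

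Genes above 0.5 FPKM in at least 5 of 15 samples were tested (12490) on log2(value + 0.1), as deposited and as nuclear TPM, with limma 3.58.1 in R 4.3.3: 1 mean per group, all samples in 1 fit, a trend in the prior variance and Benjamini-Hochberg adjustment over all genes tested. Fold changes are on that scale and understate changes of low genes. Pooling assumes that groups vary alike, and they did not. Whole reads were recovered from FPKM by searching for gene lengths and library sizes (22436 of 22436 genes within 0.001 reads), giving depths, lengths and a limma-voom alternative, which called 2121 genes higher and 3083 lower in Model against Control. On simulated FPKM it was right in all libraries for 98.51% of 19855 genes. Values after ± are the SD between libraries for levels and the limma SE for log2 changes. The limit of 3 reads for a count of 0 covers counting error only.

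Genes named were 16 chosen for a known role (15 were members, Mrpl11 being a row in lower case), the 5 highest and 5 lowest in Control, the 3 highest and lowest changes of each comparison, up to 5 called in LIPUS against Model, the untested member and up to 3 of each other list by p; other members called were named after their values were seen. Promoters came from RefSeq on GRCr8, another build than rn6. Alternatives were other pseudocounts, filters, scalings, samples in the fit, array weights, a replicate block, limma-voom and leaving out each sample.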

Additional observations from a re-analysis of the deposited data

Results flagged for a closer look

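A sample far from the other 4 of its group was found in 17 of 108 groups of 5 examined. Chance flags about 1 in 20 independent groups. The genes examined share libraries and were partly named for their values, so no comparison with that rate is drawn. The levels below are nuclear TPM unless named otherwise.

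Model 7 accounted for 9 of them. It was the lowest Model library for Mrps6 (96.7 against 666.9 to 810.1 in the others). It was the highest for Mrps24 (132.1), Mrps5 (39.7), Mrpl51 (23.5), Mrpl38 (19.7), Mrpl39 (29.7), Mrps22 (23.4), Mrpl3 (45.8) and Mrpl40 (17.2). For Mrps5, Mrpl39 and Mrpl40 the other 4 Model libraries lay at 3.48 to 10.2, 5.51 to 10.2 and 3.24 to 6.76.

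Among the other samples, Model 10 had the highest summed FPKM of the members, 2748 against 2054 to 2218, and Model 6 the highest Mrpl58, 127.6 against 89.5 to 100.5. Control 8 was highest for Mrpl23 (76.9) and Mrpl33 (45.4), and Control 7 lowest for Mrps5 (25). LIPUS 10, the library with the most mitochondrially encoded reads, was lowest for Mrps12 (31.3 against 48.5 to 55.5) and highest for Mrpl44 (62.2 against 14.4 to 25.8). LIPUS 6 was highest for Mrps30 (27.1 against 13.1 to 16.7). The cause of these values was not tested.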

How the results depend on the processing

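Over 71 changes of single members and 26 alternatives, 1580 of 1846 values kept direction and side of the threshold, 207 lost the call, 53 gained it and 6 turned direction. The last were Mrpl3 in Model against Control in nuclear TPM, 0.13 with median-of-ratios and 0.12 with limma-voom; Mrps22 in the same comparison, 0.05 with median-of-ratios, 0.08 with quantile normalization and 0.04 with limma-voom; and Mrps28 in LIPUS against Model, 0.06 without Model 7 and LIPUS 10. None of the 6 was called, and the cause was not tested.

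Counts of members called moved more. Median-of-ratios, quantile normalization and limma-voom gave 48, 44 and 48 higher in Model against Control with 0 lower, and 34, 25 and 34 higher in LIPUS against Control with 0 lower, on both scales. In LIPUS against Model they gave 6, 5 and 1 lower. The shares over all genes under these scalings are given with each comparison above. Fitting only the groups compared gave, as deposited, 19 higher and 13 lower in Model against Control and 0 lower in LIPUS against Model, and in nuclear TPM 0 lower in LIPUS against Model and 15 higher in LIPUS against Control. The shares over all genes were, in the same order, 5.33% higher and 55.8% lower, 0% lower, 0% lower and 5.71% higher. Array weights gave 21 higher and 21 lower in Model against Control as deposited and 19 lower in nuclear TPM, 10 higher and 6 lower in LIPUS against Model and 18 higher in LIPUS against Control in nuclear TPM. With them, in Model against Control, 9.17% of all genes rose and 62.5% fell as deposited, and 57.2% fell in nuclear TPM. In nuclear TPM 17.6% of all genes rose and 3.13% fell in LIPUS against Model, and 7.01% rose in LIPUS against Control. Without a filter, 17 were lower in LIPUS against Model as deposited, beside 3.27% of all genes. With Model 7 and LIPUS 10 both left out, an alternative chosen after seeing the data, Model against Control had 15 higher and 18 lower as deposited and 13 lower in nuclear TPM, LIPUS against Model 12 higher and 6 lower in nuclear TPM, and LIPUS against Control 1 higher as deposited and 14 in nuclear TPM. The shares over all genes were, in the same order, 7.17% and 55.8%, 48.3%, 20% and 7.41%, 1.93% and 6%.

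Leaving out 1 library at a time, Model against Control ranged from 5 to 13 higher and 3 to 11 lower as deposited, and from 15 to 21 and 1 to 10 in nuclear TPM. Of all genes, 1.98% to 5.03% rose and 36.7% to 51.5% fell as deposited. In nuclear TPM 4.03% to 7.17% rose and 24% to 44% fell. LIPUS against Model ranged from 0 to 51 lower as deposited, and from 0 to 12 higher and 0 to 9 lower in nuclear TPM. Of all genes, 0.032% to 34.8% fell as deposited, and 0.56% to 20.9% rose and 0.04% to 6.49% fell in nuclear TPM. LIPUS against Control ranged from 0 to 1 higher and 35 to 60 lower as deposited, and from 5 to 17 higher in nuclear TPM. Of all genes, 0.705% to 1.47% rose and 67.8% to 80.1% fell as deposited, and 3.43% to 6.61% rose in nuclear TPM.

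Samples with the same replicate number did not deviate together (correlations of -0.417 to 0.249 as deposited and -0.419 to 0.23 in nuclear TPM; 0 of 15 samples correlated best with their own number). These correlations showed no pairing by number. Whether samples of 1 number shared a batch was not tested. With the replicate number as a block, LIPUS against Model had 0 members lower on either scale, and Model against Control had 19 higher and 4 lower in nuclear TPM. Of all genes, 0.00801% as deposited and 0.048% in nuclear TPM fell in the former. In the latter 4.97% rose and 31.2% fell. Mrpl39 had -0.96 (adjusted p = 0.032) in Model against Control and Mrpl58 0.61 (adjusted p = 0.0514) in LIPUS against Control. Mrps21l was too low to test at this depth, and no other member fell below the filter.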
